A study of Mus musculus with 8 samples.

Results

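Transcription factors of the primitive streak and caudal mesoderm, encoded by the 7 genes *Cdx1*, *Cdx4*, *Mixl1*, *Evx1*, *Tbx6*, *Mesp1* and *Gsc*, were followed in mouse embryonic stem cells (ESCs) and in neural precursor cells (NPCs) derived from them. They were taken by symbol from the 26263 genes of the count tables, and all 7 of 7 were found. The genes were chosen by their read counts in NPCs against ESCs together with their known role, *Cdx1* having the lowest log2 fold change of all genes tested. Values of the 7 genes between the stages are therefore given as a description, without a test.

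Poly(A) RNA was sequenced from 2 male hybrid ESC lines, each a single line of its cross. The B/J line (BJE2) is labelled C57BL/6 x JF1 and the J/B line (JBE6) JF1 x C57BL/6, so cross and line cannot be told apart. ESCs were kept in a medium with LIF, BMP4 and a GSK3-β inhibitor, and NPCs were collected at day 12 of *in vitro* corticogenesis, a culture on Matrigel in defined medium that starts with an inhibitor of BMP receptors. Each of the 4 groups had 2 libraries, numbered 1 and 2 in their titles. What separates the numbers, or whether they mark separate cultures, is not in the labels, so p-values measure only the spread between these libraries, which may be technical.

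The primitive streak is the furrow of the gastrulating embryo through which epiblast cells leave to form mesoderm and endoderm. Wnt and Nodal signals, with BMP and FGF, switch on *T* (brachyury), *Mixl1*, *Evx1* and *Gsc* there, and *Mesp1* and *Tbx6* mark the mesoderm that emerges. The caudal-type factors *Cdx1*, *Cdx2* and *Cdx4* pattern the posterior body and act on Hox genes. In mouse ESCs, inhibition of GSK3 mimics a Wnt signal, and *Cdx1* is a known target of that pathway.

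The 250 bases upstream of the annotated start were available from RefSeq (GRCm38.p6) for 5 of the 7 genes, *Evx1*, *Mesp1*, *Tbx6*, *Gsc* and *Cdx4*, with no entry used for *Mixl1* and *Cdx1*. They were searched on both strands for the TCF/LEF motifs CTTTGAA and CTTTGAT, read by Wnt effectors, the T-box motif GGTGTGA, the FOXH1 motif TGTGGATT of Nodal signalling, the CDX motif TTTATGG and the bicoid-type homeodomain motif TAATCC. *Mesp1* held a match, and *Tbx6*, *Evx1*, *Gsc* and *Cdx4* had these letters nowhere in the window. The stretches of 3 genes are shown, that of *Mesp1* with its 2 matches in capitals, and those of *Evx1*, lower in NPCs, and *Tbx6*, higher in NPCs, for comparison (chr7:79793591-79793840, minus strand, chr6:52313248-52313497, plus strand, and chr7:126781233-126781482, plus strand).
Mesp1: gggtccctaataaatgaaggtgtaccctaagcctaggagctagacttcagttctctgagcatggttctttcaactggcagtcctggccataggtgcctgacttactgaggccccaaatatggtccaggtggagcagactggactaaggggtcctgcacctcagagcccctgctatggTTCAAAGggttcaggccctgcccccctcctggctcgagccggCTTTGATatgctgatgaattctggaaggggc
Evx1: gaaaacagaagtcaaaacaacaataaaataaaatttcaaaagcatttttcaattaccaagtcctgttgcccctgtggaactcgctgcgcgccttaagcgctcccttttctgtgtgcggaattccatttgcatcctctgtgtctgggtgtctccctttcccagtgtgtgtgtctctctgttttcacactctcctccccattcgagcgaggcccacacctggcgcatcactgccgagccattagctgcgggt
Tbx6: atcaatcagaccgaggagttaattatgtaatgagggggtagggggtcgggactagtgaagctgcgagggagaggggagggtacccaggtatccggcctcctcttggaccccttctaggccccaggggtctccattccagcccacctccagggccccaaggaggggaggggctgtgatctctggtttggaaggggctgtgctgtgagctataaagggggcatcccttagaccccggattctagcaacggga
In *Mesp1*, CTTTGAA began 73 bases upstream of the start on the opposite strand, and CTTTGAT 31 bases upstream on the given strand. Of all 32851 RefSeq promoters cut to the same 250 bases, 4.46% held CTTTGAA and 3.21% CTTTGAT. The other motifs were present in 3.33% (GGTGTGA), 0.718% (TGTGGATT), 2.43% (TTTATGG) and 6.25% (TAATCC). None of the motifs overlaps another in these matches, and a match is a run of letters, not a site shown to be bound.

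Libraries held 22537138 to 32706015 reads on genes. Levels are given as counts per 1000000 such reads (CPM), and 1 count was worth 0.0306 to 0.0444 CPM. Of the ESC markers, 7 of 7 fell in NPCs, among them *Pou5f1* from 1351–1950 CPM to 19.5–58.9 CPM. Of the neural precursor markers, 5 of 7 rose, with *Nes* up by 2.09 on the log2 scale and *Fabp7* by 8.52, and *Sox2*, which both cell types use, fell. Within B/J 3 of 7 were called higher, and within J/B 5 of 7. Over all genes tested and both lines, 37.5% were called higher and 31.9% lower. *Pax6*, a marker of dorsal forebrain progenitors, ranged over 1.02–13.9 CPM in ESCs against 7.95–54.9 CPM in NPCs (adjusted p = 0.0606). The day 12 cells also held RNA of other lineages. The summed level of 7 later mesoderm markers was 4.56–11.3 CPM in ESCs against 115–247 CPM in NPCs, that of 7 trophoblast markers 49.9–160 and 1293–3522 CPM, and that of 7 endoderm markers 12.0–13.7 and 43.9–139 CPM. None of these markers was at 0 in an NPC library, and the most abundant were *Krt8* of trophoblast (568–1557 CPM), *Pdgfra* of mesoderm (56.8–148 CPM) and *Cxcr4* of endoderm (16.3–51.6 CPM). *Tpbpa*, which marks spongiotrophoblast, was at 0 in the 4 ESC libraries and at 171–450 CPM in NPCs. In such bulk samples, fewer cells of a type and less RNA per cell cannot be told apart.

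Positions are given on GRCm39, where all 7 genes are annotated as protein-coding. *Cdx1* is at chr18:61151934-61169314 (minus strand), *Cdx4* at chrX:102365004-102374815 (plus), *Mixl1* at chr1:180520608-180524599 (minus) and *Evx1* at chr6:52290483-52295363 (plus). *Tbx6* is at chr7:126380655-126384732 (plus), *Mesp1* at chr7:79441989-79443536 (minus) and *Gsc* at chr12:104437468-104439632 (minus). In the annotation, exons of *Evx1* share 498 bp (17.3% of its exon length) with its antisense transcript *Evx1os*. Exons of *Gsc* share 43 bp with the divergent transcript *Gscdt*. The sources used here do not say whether counting used strand, so reads in these stretches may belong to either gene.

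*Cdx1*, a caudal homeobox factor, had the highest level of the 7 genes per kilobase of exon in every ESC library and was nearly absent at day 12. It had 2668 and 490 counts in the B/J ESC libraries (95 and 17.9 CPM) and 3050 and 274 counts in the J/B ESC libraries (135 and 10.3 CPM). In NPCs it had 1 and 1 counts in B/J (0.0325 and 0.0376 CPM) and 11 and 11 counts in J/B (0.336 and 0.429 CPM). All 4 NPC libraries were below all 4 ESC libraries, and within the ESCs of each line replicate 1 was far above replicate 2. The pooled ESC/NPC ratio on library totals was 299, with a 95% counting interval of 201 to 467, and 416 (279 to 650) with TMM factors. Its size depended on the replicate number, at 598 (342 to 1158) with number 1 alone against 61.6 (35.1 to 120) with number 2 alone. On library totals the ratio was 1632 (452 to 13486) in B/J, where the NPC side rests on 2 counts, and 180 (118 to 287) in J/B. The log2 fold change was -9.52 over both lines, rank 1 from the lowest of 16399 genes tested, -10.95 (rank 1) within B/J and -8.09 (rank 21) within J/B.

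*Cdx4*, its X-linked relative, was barely read at either stage. It had 0 and 1 counts in B/J ESCs, 4 and 3 in J/B ESCs, 0 and 0 in B/J NPCs, and 2 and 0 in J/B NPCs. It is the 1 of the 7 genes that did not pass the filter on low counts. A count of 0 allows up to 3 counts as a one-sided limit, which is 0.0974 to 0.117 CPM in the libraries concerned, while the two-sided 95% intervals drawn in the plot of all libraries reach 0.120 to 0.144 CPM. The 8 ESC against 2 NPC counts gave a ratio of 4.43 on library totals, with a counting interval of 0.883 to 42.8, and of 6.16 (1.23 to 59.5) with TMM factors, so that whether the interval held 1 depended on the scaling.

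The third mouse caudal gene, *Cdx2*, which also drives trophoblast, went the opposite way. It rose from 1.95–8.90 CPM to 23.3–92.4 CPM, by 2.63 on the log2 scale (standard error 0.575, adjusted p = 0.00434, edgeR's quasi-likelihood test). It moved with the trophoblast markers given above, whose part in this result was not tested. Per kilobase of exon, *Cdx1* ranged over 5.21–68.3 CPM in ESCs against 0.0164–0.217 CPM in NPCs.

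*Mixl1*, a homeobox factor of streak cells on their way to mesendoderm, was low in 6 of the 8 libraries. It had 11 and 318 counts in B/J ESCs (0.392 and 11.6 CPM), 15 and 139 in J/B ESCs (0.666 and 5.24 CPM), 4 and 4 in B/J NPCs (0.130 and 0.150 CPM) and 9 and 1 in J/B NPCs (0.275 and 0.0390 CPM). Only the ESC libraries with number 2 were above 1 CPM, and those with number 1 lay just above the highest NPC library. The pooled ESC/NPC ratio was 29.7 (18.6 to 50.5), but 2.51 (1.24 to 5.32) among the libraries with number 1 and 88.5 (37.6 to 274) among those with number 2. The log2 fold change was -5.20 (rank 174 from the lowest), -5.82 within B/J and -4.58 within J/B.

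*Evx1*, a homeobox factor of the posterior streak, was read in every library. It had 154 and 344 counts in B/J ESCs (5.48 and 12.5 CPM), 100 and 274 in J/B ESCs (4.44 and 10.3 CPM), 12 and 62 in B/J NPCs (0.389 and 2.33 CPM) and 98 and 40 in J/B NPCs (3.0 and 1.56 CPM). The stages did not overlap, and the NPC libraries of B/J differed by 5.99-fold (3.20 to 12.2) between the replicates. The pooled ESC/NPC ratio was 4.55 (3.91 to 5.31), 6.96 for B/J against 3.22 for J/B, and the log2 fold change was -2.68. *Evx1os*, the antisense partner, ranged over 0.577–1.71 CPM in ESCs against 0.0974–2.11 CPM in NPCs, and its groups overlapped. The paralogue *Evx2*, which neighbours the HoxD cluster, had 0, 0, 0 and 2 counts in ESCs and 8, 72, 45 and 59 in NPCs, and was called higher in NPCs (adjusted p = 0.00398).

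*Tbx6*, a T-box factor of presomitic mesoderm, was the 1 factor of the list whose NPC libraries all lay above the ESC libraries. It had 15 and 21 counts in B/J ESCs (0.534 and 0.766 CPM), 8 and 9 in J/B ESCs (0.355 and 0.339 CPM), 54 and 41 in B/J NPCs (1.75 and 1.54 CPM) and 66 and 52 in J/B NPCs (2.02 and 2.03 CPM). Replicates were close at both stages. The pooled NPC/ESC ratio was 3.63 (2.68 to 5.0), 2.55 for B/J against 5.84 for J/B, with a log2 fold change of 1.46. The level stayed low, at 0.855–1.13 CPM per kilobase of exon in NPCs.

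*Mesp1*, a basic helix-loop-helix factor of nascent cardiac and cranial mesoderm, had no common direction. It had 1 and 44 counts in B/J ESCs (0.0356 and 1.61 CPM), 0 and 5 in J/B ESCs (0 and 0.189 CPM), 29 and 9 in B/J NPCs (0.941 and 0.339 CPM) and 43 and 4 in J/B NPCs (1.31 and 0.156 CPM). The highest of all 8 libraries was an ESC library, replicate 2 of B/J. With number 1 alone the NPC/ESC ratio was 57.4 (9.98 to 2298), resting on 1 ESC count, and with number 2 alone the ESC/NPC ratio was 3.65 (1.95 to 7.33). The log2 fold change of 0.82 became -0.30 without replicate 1 of the J/B NPCs, and it was -0.78 within B/J and 2.42 within J/B. Its neighbour and paralogue *Mesp2*, used in somite segmentation, fell by 2.63 on the log2 scale (adjusted p = 0.00735), from 1.24–3.99 CPM to 0.195–0.734 CPM.

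*Gsc* (goosecoid), a homeobox factor of the anterior streak and organizer, had no common direction between the stages. It had 42 and 46 counts in B/J ESCs (1.49 and 1.68 CPM), 19 and 42 in J/B ESCs (0.843 and 1.58 CPM), 71 and 20 in B/J NPCs (2.30 and 0.752 CPM) and 40 and 12 in J/B NPCs (1.22 and 0.468 CPM). In NPCs of either line replicate 1 was the higher. The pooled ESC/NPC ratio was 1.15 (0.911 to 1.46) scaled by library totals but 1.60 (1.27 to 2.03) scaled by TMM factors. For library totals, it came to 0.689 (0.496 to 0.951) with number 1 alone and 2.66 (1.76 to 4.12) with number 2 alone, so the direction turned with the number. The log2 fold change was -0.74 with TMM factors, -0.28 on library totals and -0.18 after scaling to housekeeping genes. The related *Gsc2* fell by 4.41 on the log2 scale (adjusted p = 0.000299), from 1.38–2.46 CPM to 0.0325–0.245 CPM.

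**Figure D1:**
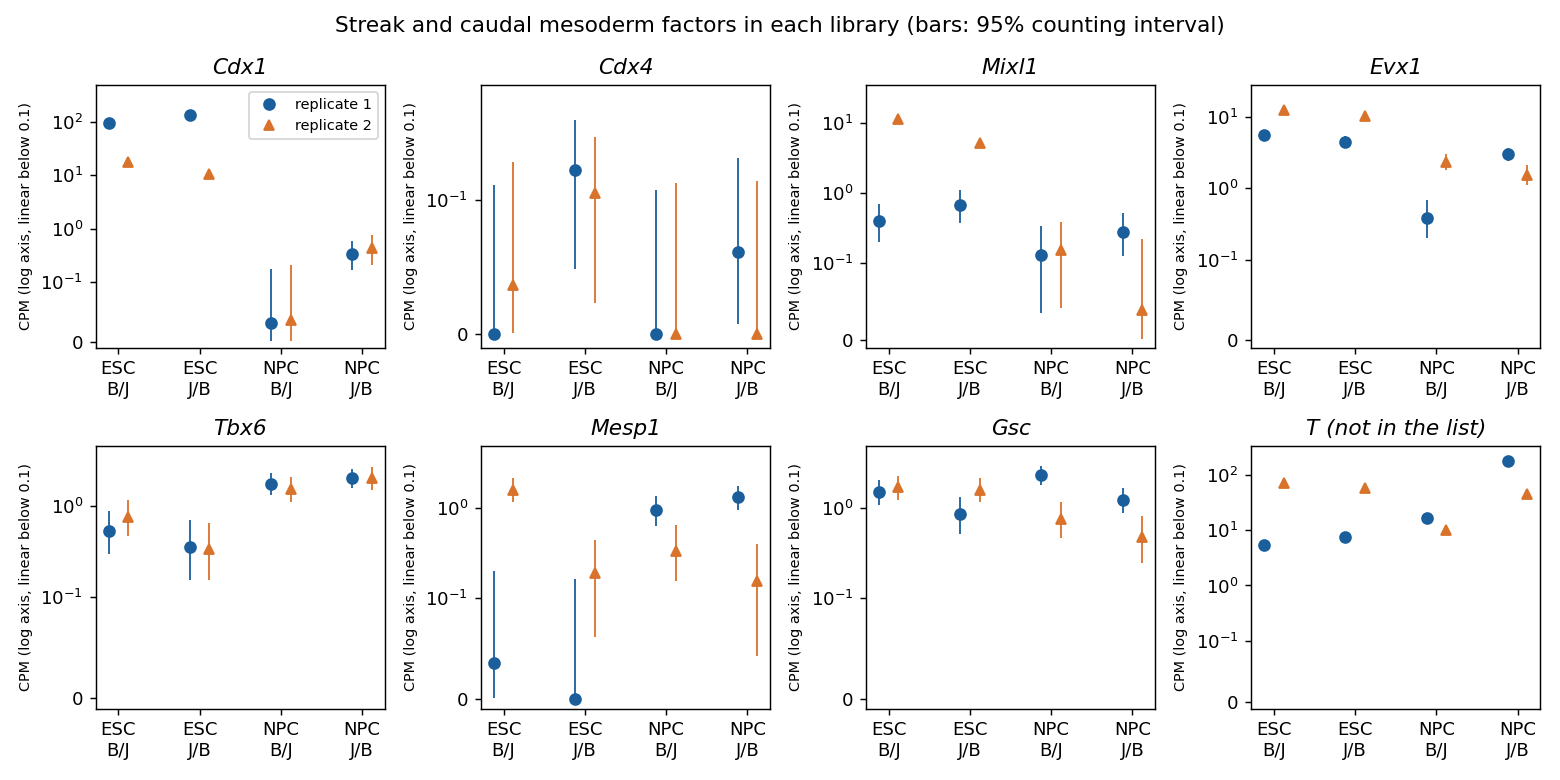
CPM of the 7 factors and of *T* in each of the 8 libraries (y axis in CPM, logarithmic above 0.1 and linear below), by stage and cross. Circles are replicate 1, triangles replicate 2, and bars are 95% exact Poisson intervals. *Cdx1* lies at 10.3 to 135 CPM in ESCs against 0.0325 to 0.429 CPM in NPCs, while the stages overlap for *Mesp1*, *Gsc*, *Cdx4* and *T*.

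As mean ± SD over the 4 libraries of a stage, *Cdx1* was at 64.6 ± 60.7 CPM in ESCs against 0.209 ± 0.204 CPM in NPCs. *Mixl1* was at 4.48 ± 5.25 against 0.149 ± 0.0973 CPM, *Evx1* at 8.20 ± 3.87 against 1.82 ± 1.12 CPM and *Tbx6* at 0.499 ± 0.199 against 1.84 ± 0.234 CPM. *Mesp1*, at 0.457 ± 0.770 against 0.688 ± 0.536 CPM, and *Gsc*, at 1.40 ± 0.379 against 1.19 ± 0.807 CPM, differed by less than these spreads. Of the 7 genes, 3 (*Cdx1*, *Mixl1* and *Evx1*) had all 4 NPC libraries below all 4 ESC libraries, against 20.5% of the genes tested, and *Tbx6* had all of them above, against 46.7%. Over all genes tested, 37.5% were called higher and 31.9% lower in NPCs, and since the stage contrast chose the list, nothing is read from this background. The median log2 fold change was -1.71 for the 6 factors that passed the filter and 0.17 for all genes tested. The median of all genes was 0.65 with library totals in place of TMM factors and 0.80 with 3 housekeeping genes (*Gapdh*, *Gusb*, *Tbp*) as the scale, which moved the share of higher calls from 54.0% to 70.1% and 75.0%. Of these 3 genes, *Gapdh* (-1.43, adjusted p = 0.000142) and *Tbp* (-0.69, adjusted p = 0.00408) were themselves called lower in NPCs with TMM factors, and *Gusb* was at 0.23 (adjusted p = 0.427).

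Per kilobase of exon, the order of the factors differed between the stages. In ESC libraries with number 1, *Cdx1* (47.9 and 68.3 CPM) stood far above *Evx1* (1.91 and 1.54), *Gsc* (1.14 and 0.643), *Tbx6* (0.296 and 0.197) and *Mixl1* (0.171 and 0.290), and *Tbx6* and *Mixl1* could not be ordered. In those with number 2, *Cdx1* (9.02 and 5.21) was followed by *Mixl1* (5.06 and 2.29) and *Evx1* (4.36 and 3.59), which overlapped. In NPCs, *Tbx6* (0.855–1.13), *Gsc* (0.357–1.76), *Evx1* (0.135–1.04) and *Mesp1* (0.122–1.03) overlapped, *Mixl1* reached no more than 0.120, and *Cdx1* no more than 0.217.

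Between the crosses, a contrast that did not enter the choice of genes, none of the 6 factors tested was called. In ESCs the J/B against B/J log2 fold change was 0.35 (standard error 1.07) for *Cdx1*, -1.06 (1.38) for *Mixl1*, -0.33 (0.807) for *Evx1*, -0.93 (0.578) for *Tbx6*, -3.05 (1.85) for *Mesp1* and -0.43 (0.760) for *Gsc*, each with an adjusted p of 1. Of all genes tested 0% were called in this contrast by edgeR, with 346 at an unadjusted p under 0.05 and 10 called by DESeq2. In NPCs *Cdx1* (2 counts in B/J against 22 in J/B) and *Mixl1* (8 against 10 counts) were near the floor, having passed the filter through their ESC libraries, and nothing is read from their tests. *Evx1* was at 0.72 (standard error 0.842, adjusted p = 0.890), *Gsc* at -0.91 (0.765, adjusted p = 0.848), *Tbx6* at 0.24 (0.530, adjusted p = 0.958) and *Mesp1* at 0.15 (1.57, adjusted p = 0.996). The background was 0.0061% of genes called, which is the 1 gene *Firre*, an X-linked noncoding RNA (log2 fold change -3.32, adjusted p = 0.0431), named after its values were seen.

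The interaction of stage and cross asks whether the change to day 12 differed between the lines. For *Cdx1* and *Mixl1*, whose NPC counts were near the floor, nothing is read from it. It was 3.20 (standard error 2.41) for *Mesp1*, 1.17 (0.783) for *Tbx6*, 1.05 (1.17) for *Evx1* and -0.48 (1.07) for *Gsc*, with an adjusted p of 1 each. Of all genes 0% were called by edgeR, 573 had an unadjusted p under 0.05, and DESeq2 called 11.

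The libraries with number 1 and number 2 were also compared within each stage, since the numbers stand in the titles. The rule that chose the genes named the stages and not the numbers. It did use the same ESC counts, and it named *Cdx1* for its fall from them. The test of *Cdx1* between the numbers in ESCs is therefore not independent of its choice. In ESCs, *Cdx1* was lower with number 2 by 3.12 on the log2 scale (standard error 0.328, adjusted p = 0.0188, edgeR), and was 5.31-fold (4.82 to 5.86) and 13.1-fold (11.6 to 14.9) higher in replicate 1 within B/J and J/B. That is 1 of 6 factors called lower and 0 called higher, against 0.982% and 1.45% of all genes tested. The call was lost without replicate 1 of the J/B ESCs (-2.48, adjusted p = 0.170) and without replicate 2 (-2.47, adjusted p = 0.115), with *Cdx1* lower in number 2 in 2 of 2 lines.

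*Mixl1*, *Mesp1* and *Evx1* were higher in replicate 2 of both lines and did not pass the threshold, which for *Mixl1* and *Mesp1* depended on the settings. *Mixl1* was 29.6-fold (16.3 to 60.0) and 7.88-fold (4.61 to 14.5) higher in replicate 2, or 3.84 on the log2 scale with a standard error of 0.690 (adjusted p = 0.0510). It was called in 8 of 14 alternatives, and its adjusted p ran from 0.000342 with DESeq2 to 0.251 without replicate 1 of the J/B ESCs. *Mesp1* had 44 against 1 counts in B/J and 5 against 0 in J/B, at 5.33 (1.03, adjusted p = 0.0559). It was called in 2 of 12 alternatives, with adjusted p from 0.0412 without a filter to 0.337 without replicate 2 of the B/J ESCs, and *Evx1* was 2.29-fold and 2.33-fold higher, at 1.13 (0.674, adjusted p = 0.351). *Gsc* (0.45, adjusted p = 0.585) and *Tbx6* (0.20, adjusted p = 0.860) differed by no more than their standard error, and in J/B *Tbx6* (8 and 9 counts) and *Cdx4* (4 and 3 counts) gave ratios of replicate 2 to replicate 1 of 0.956 and 0.638. For *Gsc* this ratio was 1.88 (1.07 to 3.42) in J/B and 1.12 (0.723 to 1.75) in B/J.

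**Figure D2:**
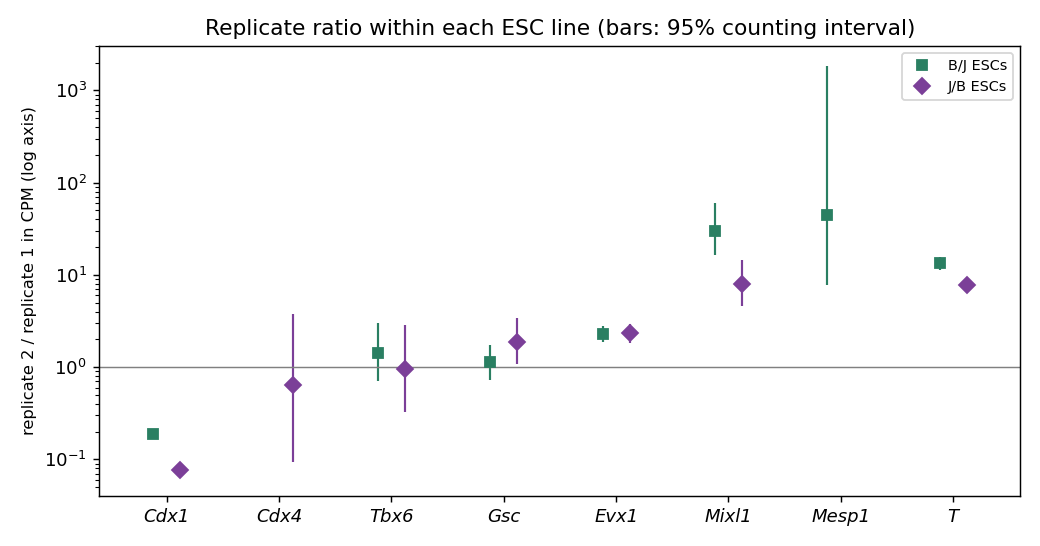
Ratio of replicate 2 to replicate 1 in CPM on a log axis for each factor and *T*, in B/J ESCs (squares) and J/B ESCs (diamonds), with 95% conditional binomial intervals. Ratios that need a library with a count of 0 (*Cdx4* in B/J, *Mesp1* in J/B) are left out. *Cdx1* lies below 1 and *Evx1*, *Mixl1* and *T* above 1 in both lines.

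*T*, the defining streak gene, was read in ESCs at 5.41 and 72.0 CPM in B/J and 7.45 and 58.2 CPM in J/B. It was 13.3-fold and 7.81-fold higher in replicate 2, and was called (3.27, standard error 0.350, adjusted p = 0.0199), though not without any 1 ESC library (adjusted p up to 0.170). Of 19 other streak and mesoderm factors tested, 5 were higher with number 2 and 0 lower, against 1.45% and 0.982% of all genes, and none of the 5 calls held without 1 ESC library. They were *T*, *Cdx2* (1.89, adjusted p = 0.0209), *Lhx1* (6.24, from 0 and 2 counts to 129 and 56), *Hand1* (3.60) and *Sp5* (2.22). The ligands *Wnt3* (3.49, adjusted p = 0.0150), *Wnt5a* (3.27) and *Fgf8* (3.79, adjusted p = 0.0247) were also higher, as were 4 of 9 BMP-induced genes, *Id1* (1.31), *Id2* (2.85), *Id4* (1.24) and *Msx1* (3.39). Without 1 ESC library, at most 1 of these BMP-induced genes was called.

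Of the Nodal pathway, none of the 13 genes tested was called by edgeR, and 5 had an unadjusted p under 0.05, against 4006 of all 16399 genes. No test compared this list with the others. Its members included *Nodal* at -0.54 (adjusted p = 0.190), *Lefty1* at -0.019 and *Lefty2* at 0.67 (adjusted p = 0.155). The organizer and streak factor *Eomes* was at 16.5–26.8 CPM in the 4 ESC libraries, with a log2 fold change of -0.017. On the side of *Cdx1*, lower with number 2, was the retinoic acid receptor *Rarb* (-2.71, adjusted p = 0.0262), the 1 call among 8 retinoic acid genes. The FGF-induced *Etv4* (-1.14, adjusted p = 0.0412) and the ESC marker *Esrrb* (-1.05, adjusted p = 0.0412) were called lower as well, so that the FGF list had 1 call in each direction. Of the genes given for this contrast, *Lhx1*, *Hand1*, *Id2*, *Msx1*, *Rarb*, *Etv4*, *Esrrb* and *Otx2* were chosen after their values were seen. So were the ESC and trophoblast markers given singly below, other than *Pou5f1* and *Nanog*.

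**Figure D3:**
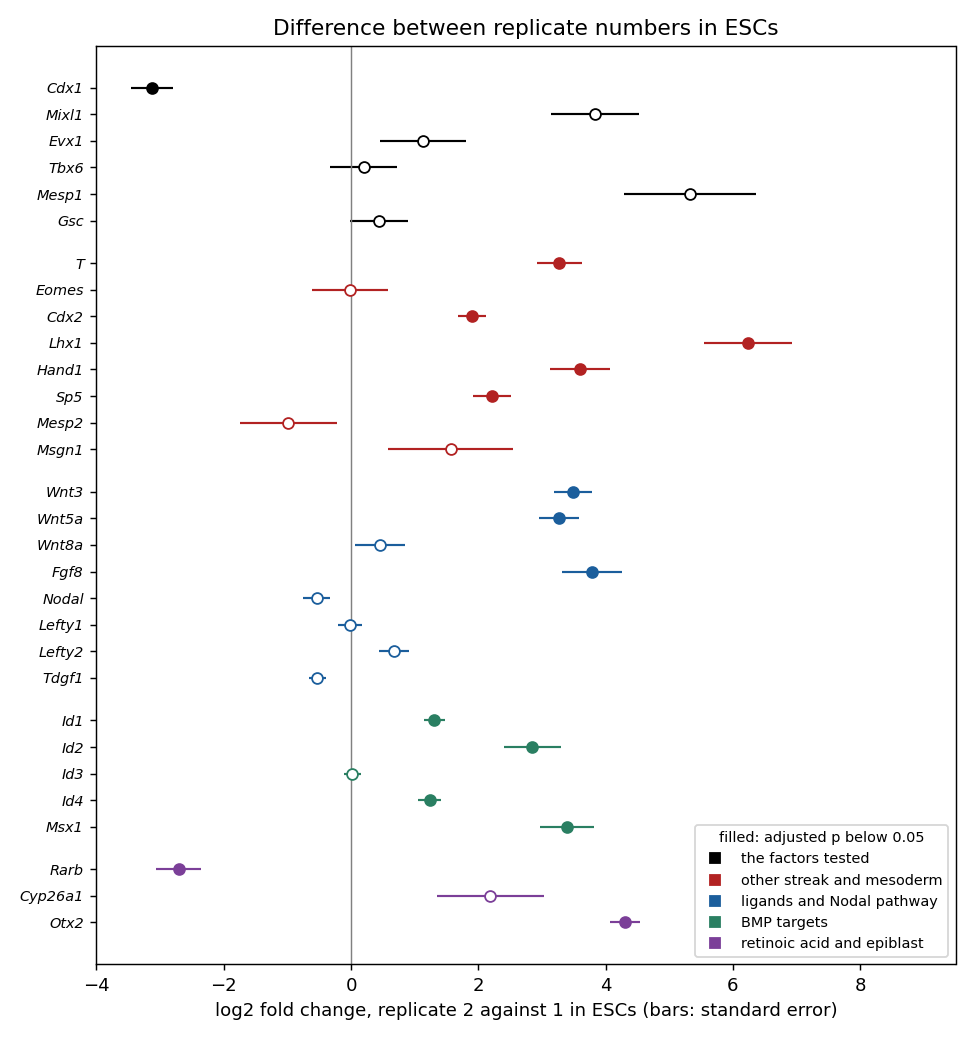
Log2 fold change of replicate 2 against replicate 1 in ESCs (x axis) for the 6 factors tested and for selected genes of the other lists, in colour by list, with standard errors. Filled points have an adjusted p below 0.05. Of the genes drawn, *Cdx1* and *Rarb* are filled on the left, *T*, *Wnt3*, *Fgf8* and 4 BMP-induced genes are among those filled on the right, and the 4 Nodal pathway genes are open.

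Markers of cell state moved with the replicate number too. The summed level of 6 formative and primed epiblast markers was 1100 and 732 CPM in the ESC libraries with number 1 and 1664 and 1726 CPM in those with number 2, with *Otx2* rising from 1.25 and 0.932 CPM to 22.8 and 22.6 CPM (adjusted p = 0.00900). The sum of 7 ESC markers was 6083 and 6325 CPM with number 1 and 4784 and 4249 CPM with number 2, and that of 7 trophoblast markers 82.9 and 49.9 against 160 and 148 CPM. The 7 neural precursor markers summed to 428 and 411 against 749 and 680 CPM. Single markers did not all follow the sums. *Pou5f1*, *Nanog*, *Dppa5a* and *Esrrb* were lower with number 2, but *Klf4* was at -0.073, *Zfp42* at 0.078 and *Sox2* at 0.70. *Elf5* of trophoblast was at -1.81 (standard error 1.59), against rises in *Ascl2*, *Gata3*, *Tfap2c*, *Krt8* and *Krt18*. Their part in the results above was not tested. Libraries were made with 1 of 2 kits and read on 1 of 2 instruments, and the sources used here do not say which library had which, so culture, kit and instrument cannot be told apart. Over all genes, 398 were called in this contrast, and leaving out 1 ESC library left 36, 26, 0 and 0, in the order B/J 1, B/J 2, J/B 1 and J/B 2. Without any 1 ESC library no list above kept more than 1 call.

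In NPCs none of the 6 factors was called between the numbers, with 0.238% of genes higher and 0.0976% lower, and with 2 of the 6 at an unadjusted p under 0.05, against 3360 of all 16399 genes. These were *Mesp1* at -2.20 (standard error 0.625, adjusted p = 0.132) and *Gsc* at -1.53 (0.474, adjusted p = 0.152), each higher in replicate 1 of both lines. *Gsc* was 3.06-fold (1.84 to 5.31) higher in replicate 1 of B/J and 2.61-fold (1.34 to 5.47) in J/B. *Evx1* (0.58) and *Tbx6* (-0.12) lay within a standard error of 0. For *Evx1* the lines went opposite ways. It was 5.99-fold (3.20 to 12.2) higher in replicate 2 of B/J and 1.92-fold (1.32 to 2.85) higher in replicate 1 of J/B. *Cdx1* and *Mixl1*, with at most 11 counts in an NPC library, were too low here for a difference to be shown. *T* had 512 and 267 counts in B/J NPCs and 5664 and 1132 in J/B NPCs, so that its highest level of all 8 libraries, 173 CPM, was in an NPC library.

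Around the 7 factors, the other genes of the program were tested between the stages. The shares of all genes tested, 37.5% higher and 31.9% lower with a median log2 fold change of 0.17, are the background of the stage counts over both lines that follow, and no test compared a list with them or with another list. Of 19 other streak, node and early mesoderm factors, 9 rose and 5 fell, with a median of 1.51. *T* (-0.35, adjusted p = 0.730) and *Eomes* (-0.85, adjusted p = 0.195) did not pass, and *T* was at -1.98 within B/J (adjusted p = 0.213) and 1.28 within J/B (adjusted p = 0.399). Its sign over both lines turned to 0.10 on library totals and 0.18 after scaling to housekeeping genes. The 5 that fell were *Msgn1* (-4.70), a presomitic mesoderm factor, *Tbx3* (-4.38), which ESCs also use for self-renewal, *Tcf15*, *Mesp2* and *Nkx1-2*. The largest rise was in *Foxc1* (7.05), a forkhead factor of paraxial and head mesoderm, from 0.107–0.875 to 50.9–103 CPM, and *Foxa2* (5.29) and *Lhx1* (4.70), of node and endoderm, rose as well. These rises moved with the later mesoderm and endoderm markers given above, and their part was not tested.

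Of the Nodal pathway, 6 of 13 genes fell and 4 rose, with a median of 0.03. The ligand *Nodal* fell by 5.14 on the log2 scale, from 54.0–95.3 CPM to 1.72–5.91 CPM, with its relative *Gdf3* (-6.14), the co-receptor *Tdgf1* (-5.99), the inhibitors *Lefty1* (-4.75) and *Lefty2* (-5.14) and the effector *Foxh1* (-3.79). The Nodal and BMP inhibitor *Cer1* rose by 7.87 from 0–0.255 CPM to 3.67–12.4 CPM, and the receptors *Acvr2a* and *Acvr2b* and the effector *Smad3* rose by 0.91 to 1.78. On library totals 6 of 13 rose and 6 fell.

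Among 5 Wnt ligands of the streak, *Wnt8a* fell by 3.40 (adjusted p = 0.000212) and *Wnt5a* rose by 2.84 (adjusted p = 0.0147), while *Wnt3* (0.22) and *Wnt3a* (0.71) were not called. The rise of *Wnt5a* ended in 1 of 16 alternatives, with adjusted p up to 0.0685. Of 10 Wnt feedback genes, 4 rose and 3 fell. *Lef1* (-1.56) and *Tcf7* (-1.30), which carry the Wnt signal to DNA, and *Notum* (-2.46) fell, and *Nkd1* (4.51), *Rnf43* (4.14), *Lgr5* (4.10) and *Dkk1* (3.62) rose. *Axin2*, a general reporter of Wnt activity, was at 0.55 (adjusted p = 0.0725) with TMM factors and was called on library totals (1.02, adjusted p = 0.00852).

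Of 9 BMP-induced genes, 4 fell, among them *Id3* (-1.07) and *Id1* (-1.16, adjusted p = 0.0239), and 3 rose, with *Id4* at 3.03. The fall of *Id1* was called in 9 of 16 alternatives and not on library totals (-0.70, adjusted p = 0.144). *Smad7*, a feedback inhibitor, had the largest fall (-1.84). Of 9 FGF genes, 7 fell and 1 rose, with a median of -3.98. *Fgf4* (-5.65), the main FGF ligand of ESCs, and the feedback genes *Spry4* (-4.16) and *Etv5* (-4.34) fell, the receptor *Fgfr1* (1.01) rose, and *Fgf8* (-1.25, adjusted p = 0.259) did not pass.

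Of 8 retinoic acid genes, 7 rose and 0 fell, with a median of 3.49. *Cyp26b1* (8.46) and *Cyp26a1* (2.37, adjusted p = 0.0194), which break retinoic acid down, *Rarb* (3.64), *Stra6* (5.63) and *Crabp2* (3.61) rose. The call of *Cyp26a1* was lost in 2 of 16 alternatives, with adjusted p up to 0.0549. Of 34 Hox genes tested, 17 rose and 6 fell, and the 6 that fell were of the posterior paralogue groups (*Hoxc10*, *Hoxa11*, *Hoxd11*, *Hoxc12*, *Hoxc13* and *Hoxd13*). The median log2 fold change of the 34 was 0.31 within B/J and 3.14 within J/B, against 0.17 and 0.15 for all genes, and *Hoxc10* was at -6.81 in B/J and -0.72 in J/B. In the interaction of stage and cross none of the 34 was called by edgeR, with 5 at an unadjusted p under 0.05 against 573 of all 16399 genes. Between the crosses in NPCs none was called, with 17 at an unadjusted p under 0.05 against 1050 of all genes. The Hox genes that fell were low from the start, *Hoxd13* (-3.79) at 1.74–2.19 CPM in ESCs. *Hoxa2* (7.34) had the largest rise, from 0–0.113 to 7.21–25.6 CPM, and *Hoxb3* (6.53) the highest level, at 15.1–37.0 CPM in NPCs. Of 10 segmentation genes, 4 rose, with *Uncx* at 7.20 and the Notch ligand *Dll1* at 4.01, and 3 fell (*Msgn1*, *Tcf15* and *Mesp2*, counted above as well).

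**Figure D4:**
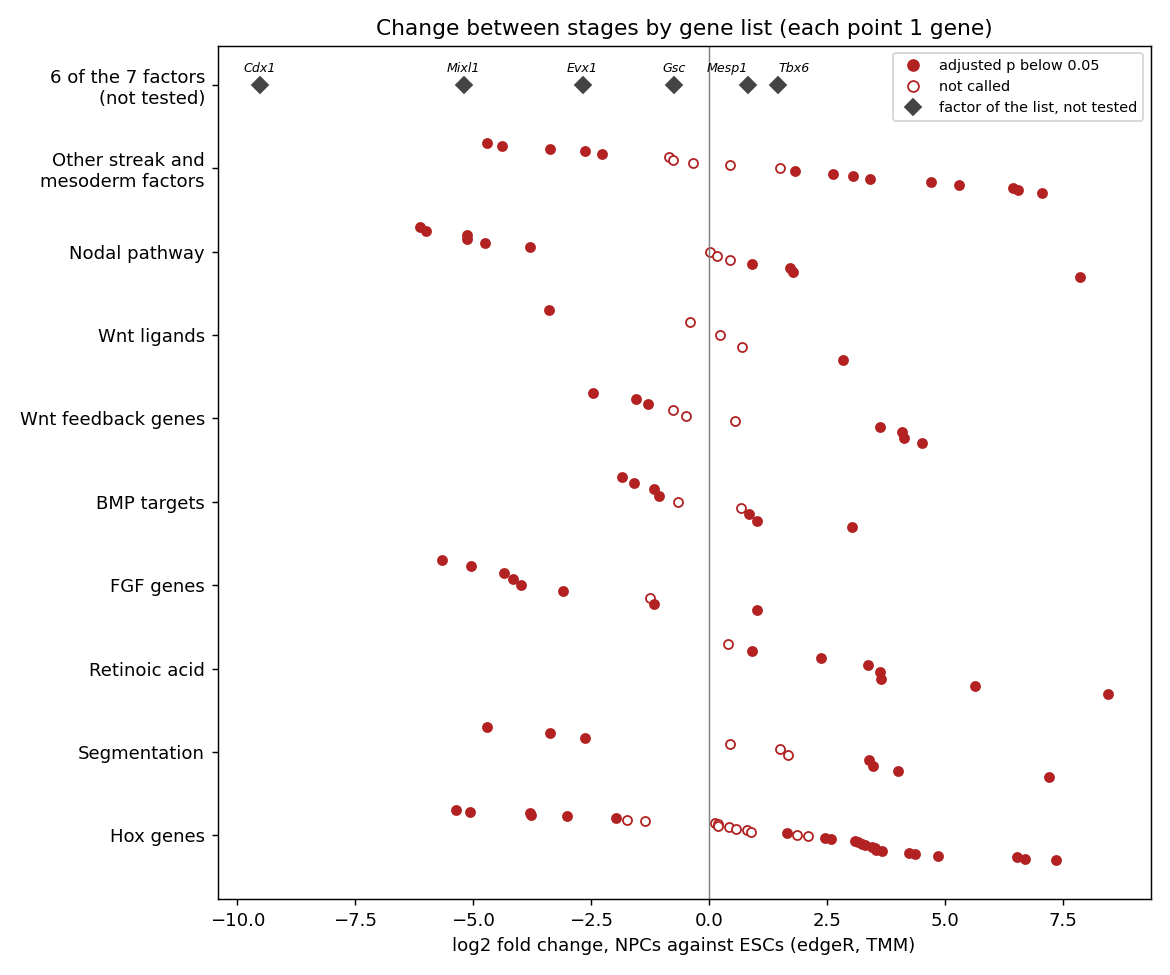
Log2 fold change of NPCs against ESCs (x axis) for each gene tested, by list. Diamonds are the 6 of the 7 factors that passed the filter, given without a test. Filled circles have an adjusted p below 0.05. The factors run from -9.52 (*Cdx1*) to 1.46 (*Tbx6*), FGF genes lie mostly to the left and retinoic acid genes to the right of 0.

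The genes whose profile over the 8 libraries was most like that of *Cdx1* were sought among all genes tested, by the root mean square difference of centred log2 values. They were *Rbfaos* (0.55), *Mylpf* (0.77), *Septin1* (0.86), *Myh13* (0.86) and *Calcoco2* (0.96). *Rbfaos*, annotated as antisense to *Rbfa*, was at 36.4 and 20.8 CPM in B/J ESCs, 110 and 10.8 CPM in J/B ESCs and 0.0612–0.339 CPM in NPCs. It shared with *Cdx1* the low NPC level and the higher replicate 1 in ESCs. *Mylpf*, a fast muscle myosin light chain, ranged over 111–320 CPM in ESCs against 2.69–5.38 CPM in NPCs. The mean profile of the 6 factors was matched most closely by *Rpf2*, *Pbdc1*, *Ppa1*, *Nol10* and *Nop10* (0.15 to 0.19), with *Rpf2* at 45.9–69.3 CPM in ESCs against 19.1–28.5 CPM in NPCs. On library totals 5 of the 5 genes most like *Cdx1* stayed and 3 of the 5 most like the mean profile did, and with a pseudocount of 0.1 CPM in place of 0.5 it was 3 and 0. These likenesses describe 8 libraries that share stage, line and replicate number.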

How the data were processed

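RNA-seq was analysed for 8 libraries, 2 for each stage and cross. The authors aligned paired-end reads by TopHat2 to mm39 with SNP positions masked (refGene-based annotation) and kept proper pairs of mapping quality 20 or more. The values they deposited are raw counts per gene over both alleles. HTSeq, DESeq2 and edgeR are also listed in the submitters' processing notes, but the sources used here give neither the counting command nor its use of strand. The 5 closing entries of each table were left out of totals (no gene, 5.76% to 10.9% of reads; ambiguous, 0.355% to 0.554%).

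Tests on the counts used edgeR 4.0.16 in R 4.3.3 (TMM, filterByExpr with minimum count 10, robust quasi-likelihood fit of the 4 groups, 16399 genes, common dispersion 0.113). P-values were adjusted after Benjamini-Hochberg across every gene tested and called below 0.05. Replicate numbers were compared with a term of their own in each stage (common dispersion 0.0380). CPM are counts per 1000000 reads on genes. Intervals are exact Poisson or conditional binomial at the 95% level and cover counting error only.

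Alternatives were RLE factors, library totals, housekeeping scaling, DESeq2 1.42.0, other filters, a replicate block, each number alone and each library left out. Where that left 1 library in a group, it was assumed to vary like the others. Leaving libraries out of the replicate contrasts was added after seeing the data. Gene positions are from GENCODE vM39. Genes named were the 7 factors, their paralogues, a set of streak and signalling genes, the most abundant and most changed gene of each list, stage markers and the genes most like *Cdx1* or the mean profile, and any others were chosen after their values were seen. Members and lists were chosen with earlier results of these data known.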

Additional observations from a re-analysis of the deposited data

Results flagged for a closer look

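For *Mesp1* in ESCs, 1 of the 4 libraries stood apart from the others. Replicate 2 of B/J was at 1.61 CPM and the others at 0 to 0.189 CPM, so that the gap was 0.882 of the range. *Cdx4* in NPCs had 1 such library as well, with a gap of 1 times the range, since its 2 counts were in replicate 1 of J/B and the other 3 libraries had 0, which is within counting error. About 1 in 20 groups of 4 pass this limit by chance where values are normally distributed, which counts near 0, such as those of *Cdx4*, are not.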

How the results depend on the processing

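Between the stages the log2 fold changes of *Cdx1*, *Mixl1*, *Evx1* and *Tbx6* kept their sign in every setting tried. Their lowest and highest values were -9.96 and -4.58, -6.17 and -0.75, -3.56 and -2.02, and 0.84 and 2.08. Of these, -4.58, -0.75, -2.02 and 0.84 came from a single replicate number. They are differences of log2 CPM with TMM factors and 0.5 CPM added, not fitted values. The added CPM shrinks changes at low levels. Pooled counts with TMM factors gave an ESC/NPC ratio of 84.7 for *Cdx1* with number 2 and 3.55 for *Mixl1* with number 1. *Mesp1* ran from -0.89 with number 2 alone to 3.20, and *Gsc* from -1.27 to 0.06 with number 1 alone. The -0.89 and the 0.06 are differences with 0.5 CPM added as well. For *Mesp1* with number 2 the pooled ESC/NPC ratio with TMM factors was 5.01 (2.68 to 10.1). Genes called between the stages numbered 10010 to 12845. With J/B against B/J in ESCs, DESeq2 called 10 genes and no filter on low counts 2, and leaving out a library 0. In NPCs, DESeq2 called 70, no filter 5, library totals 0, housekeeping scaling 0, and leaving out each library 0 to 1. DESeq2 called 11 in the interaction. The 398 genes called between the numbers in ESCs became 717 with housekeeping scaling, 1650 with DESeq2, 761 without a filter and 0 to 631 with 1 library left out. The 55 called in NPCs became 115 with RLE factors, 717 with housekeeping scaling, 790 with DESeq2, 403 without a filter, 22 with a mean of at least 1 CPM, and 0 with any library left out.

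Replicate numbers deviated together within ESCs (r = 0.61 across genes between the lines) and within NPCs (0.51) but not between the stages (0.05 to 0.09), so they do not pair all groups. With a replicate block, 0 genes were called between the crosses in NPCs and *Cdx1* in ESCs turned to -0.040. With a replicate block within each stage, 4 were called, *Cdx1* turned to -0.15 in ESCs and *Mesp1* to -0.12 in NPCs. The cause was not tested.

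Signs that turned between the crosses with 1 library left out, none of them of a called value, were in ESCs those of *Cdx1* (-2.55 to 2.04), *Mixl1* (-3.14 to 2.81), *Evx1* (-1.02 to 0.34) and *Mesp1* (-7.80 to 1.28), and in NPCs those of *Mixl1* (-1.78 to 0.90), *Evx1* (-0.067 to 2.45), *Mesp1* (-2.10 to 1.09) and *Gsc* (-1.80 to 0.14). Between the numbers they were those of *Tbx6* in ESCs (-0.13 to 0.46) and of *Mixl1* (-2.69 to 0.16) and *Evx1* (-0.98 to 2.52) in NPCs, and *Tbx6* in NPCs turned to 0.10 with housekeeping scaling. Counts of 0 to 5, as for *Cdx4* and *Mesp1*, limit what these depths can show.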
